A study of Drosophila melanogaster with 12 samples.

Results

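The mitochondrial ribosomal protein genes of Drosophila melanogaster were followed through larval life and pupariation in the eye-antennal imaginal disc and in the whole larva. They were taken as all genes whose FlyBase symbol begins with mRpL (large subunit) or mRpS (small subunit). This rule found 69 of the 10893 genes measured. The reference annotation holds 73 such genes, and the other 4 (mRpL45, mRpL53, mRpS34 and mRpS5) were not analysed here. Of the 69, 45 carry a large-subunit and 24 a small-subunit symbol.

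Polyadenylated RNA was sequenced from 12 groups with 1 library each, all from larvae of the strain w[11-18] raised on yeast-glucose medium. Both whole larvae and entire eye-antennal discs were taken 72, 96 and 120 h after egg laying, each to within 1 h, and whole discs also as white prepupae (WPP), when the puparium has just formed. Discs still joined to the mouthparts were taken at 72 h, and the eye part and the antenna part were separated at 96 and 120 h. The labels do not say how many animals gave a library, and no library has a replicate.

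Mitochondria translate the few proteins that their own genome encodes, all subunits of the respiratory chain and ATP synthase, on ribosomes of their own. The RNA of these ribosomes comes from the mitochondrial genome, whereas every one of their proteins is encoded in the nucleus, made in the cytosol and imported. The eye-antennal disc is the epithelial sac of the larva that gives rise to eye, antenna and head cuticle of the fly, and its cells proliferate through these larval stages, while most larval tissues grow by enlarging polyploid cells.

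Values are FPKM, which are fragments per transcript length and mapped total, and differences are of log2(FPKM + 1), a scale that understates changes of low genes. The number of reads is unknown, so no counting error can be given. Library sums of FPKM ran from 939303 to 2210255, the 3 larval libraries having the highest sums. Of 8 genes that mark the parts, the retinal genes gl, ey, so and eya were higher in the eye part and the antennal genes Dll, disco, ss and Lim1 lower, all 8 at a Benjamini-Hochberg adjusted p under 0.05 in limma. The summed FPKM of 11 muscle genes was 25733, 16166 and 3574 in the larvae at 72, 96 and 120 h, 12462 in discs with mouthparts, and 6853, 1875, 205 and 62.1 in discs from 72 h to WPP. In the antenna part it was 4685 and 259 at 96 and 120 h, against 519 and 40.6 in the eye part. In bulk tissue, fewer cells of a type and less RNA per cell cannot be told apart.

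All 69 genes were measured above 0 in every library, and they were highest at 72 h. The median gene stood at 67.0 FPKM in the 72 h larva, and then at 20.6 and 22.3 FPKM in the larvae at 96 and 120 h. In whole discs the median was 86.4 FPKM at 72 h, 62.9 at 96 h, 49.8 at 120 h and 48.1 at WPP. Discs with mouthparts stood at 86.5 FPKM, the eye part at 57.6 and 49.8, and the antenna part at 62.7 and 54.7 FPKM at 96 and 120 h. The late larvae were therefore the low libraries and the disc libraries of 72 h the high ones. The highest library was the whole disc at 72 h for 35 genes, the disc with mouthparts for 20 and the larva at 72 h for 10, while the lowest was the 96 h larva for 34 genes and the 120 h larva for 35.

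**Figure D1:**
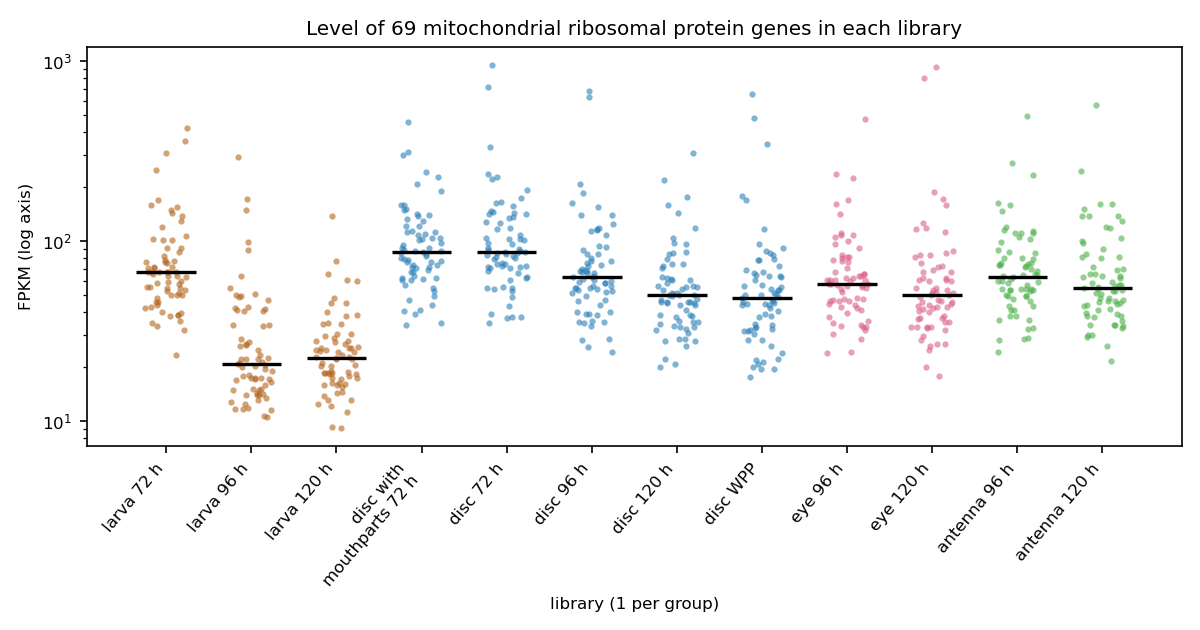
FPKM (log axis) of the 69 mitochondrial ribosomal protein genes, 1 point per gene, in each of the 12 libraries; the bar is the median gene. The medians of the 96 and 120 h larvae, 20.6 and 22.3 FPKM, lie below those of the 9 disc libraries, which run from 48.1 to 86.5 FPKM.

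Single values ran from 9.10 FPKM for mRpS35 in the 120 h larva to 946 FPKM for mRpL34 in the 72 h disc. By median over the libraries, mRpL33, mRpL34, mRpL12, mRpL22 and mRpS21 were the highest genes, and mRpS35, mRpS31, mRpL38, mRpS2 and mRpL15 the lowest. For 62 of the 69 genes (89.9%) both late larvae lay below all 9 disc libraries, a separation seen for 3628 of 9550 genes (38.0%) that reached 5 FPKM. This was counted on the deposited values, without rescaling the libraries. On those values the median ratio of genes to their geometric mean over libraries was 0.573 and 0.878 in the larvae of 96 and 120 h. In the disc libraries it ran from 1.11 to 1.22, so the late larvae were shifted down for genes in general. The 7 exceptions were mRpL9, mRpL10, mRpL28, mRpL34, mRpL35, mRpL47 and mRpS21. Among them, mRpL10, a stalk-base protein, was overlapped only by the WPP disc, at 19.9 FPKM against 22.3 FPKM in the 120 h larva.

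The 2 subunits ran in parallel. Large-subunit genes had medians of 63.5, 19.4 and 20.2 FPKM in the larvae and of 82.0, 60.0, 45.8 and 44.6 FPKM in the discs from 72 h to WPP. Small-subunit genes had medians of 71.4, 21.6 and 25.0 FPKM, and of 93.0, 67.7, 55.2 and 53.5 FPKM. Genes were also split by the number in the symbol, since numbers up to L36 and S21 are those of bacterial ribosomal proteins and higher numbers were given mostly to proteins found in mitochondria alone. The 41 genes with bacterial numbers and the 28 with higher numbers had median differences of -1.46 and -1.77 between the larvae of 72 and 96 h, and of -0.48 and -0.47 between the discs of those ages.

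**Figure D2:**
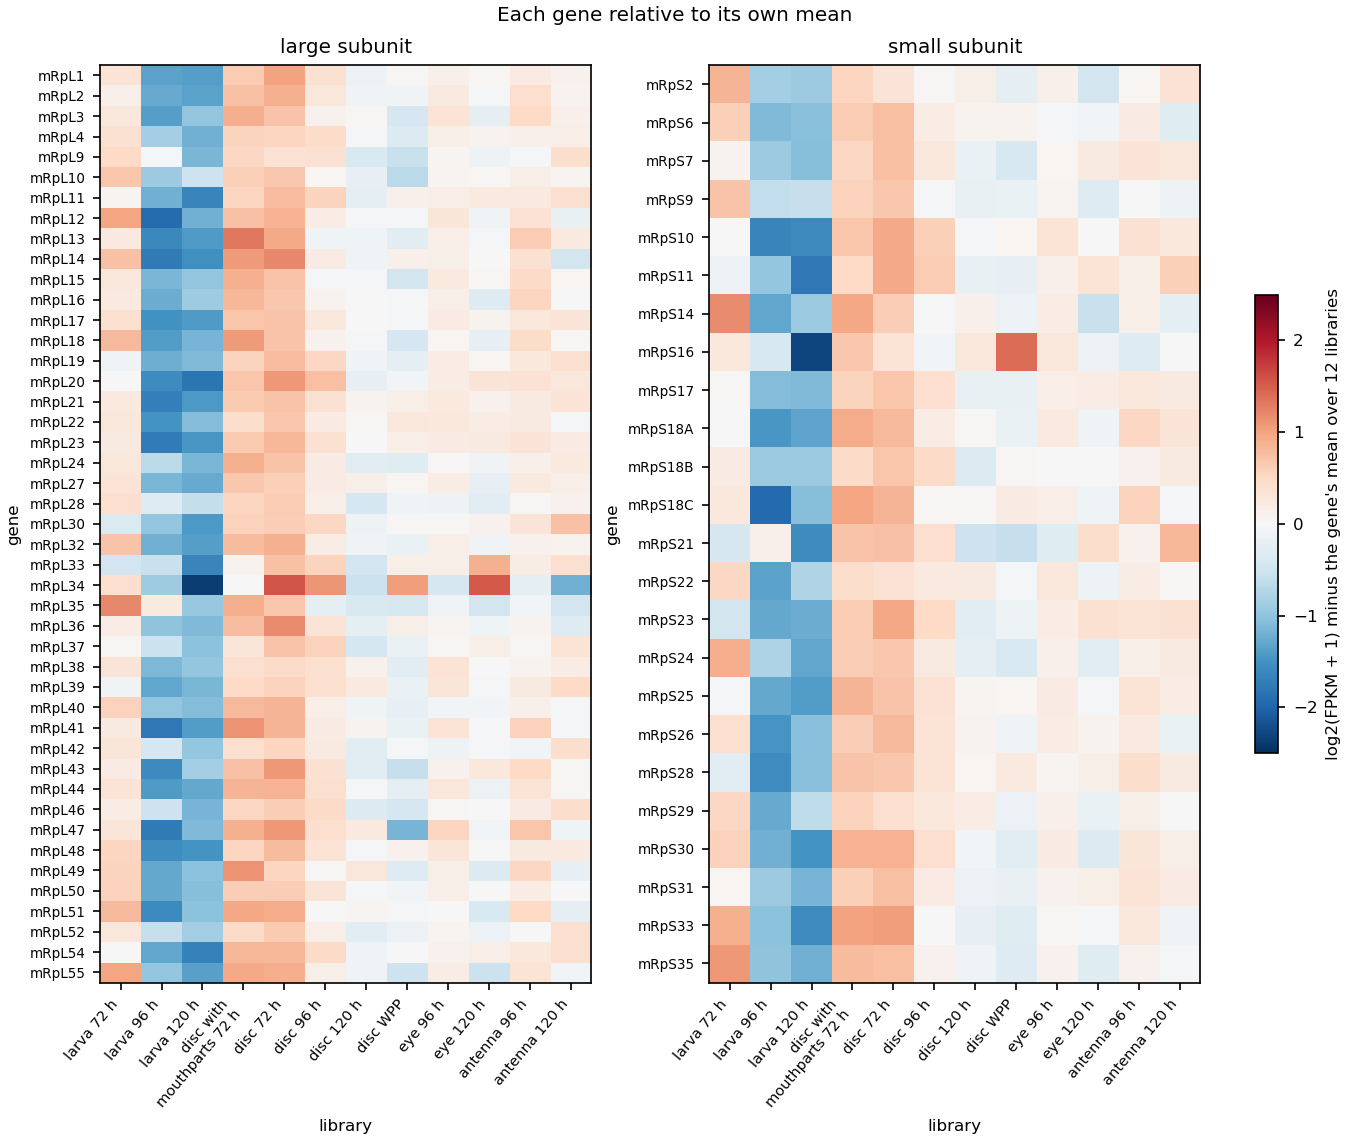
Log2(FPKM + 1) of each gene minus its own mean over the 12 libraries, for 45 large-subunit genes (left) and 24 small-subunit genes (right); red is above and blue below the mean. The columns of the 96 and 120 h larvae are blue for nearly all genes of both subunits, and mRpL34 and mRpS16 depart from their neighbours.

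Between the larvae of 72 and 96 h, 53 of the 69 genes fell at least 2-fold and none rose. The rule for a single pair was a difference of at least 1 on the log2 scale where the higher library reached 5 FPKM, and 17.3% of 7415 genes fell and 9.80% rose by it. The median difference was -1.55, against -0.14 for all genes. With the 120 h larva in place of the 96 h larva, a comparison added after the data had been seen, 67 of 69 fell at a background of 15.9%. These are differences between single libraries, with no replicate check and no p.

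The stalk protein gene mRpL12, whose product contacts the translation factors, differed most, at 360 FPKM in the 72 h larva, 47.0 in the 96 h larva and 77.7 in the 120 h larva (-2.91 from 72 to 96 h). It stood at 331, 207, 175 and 177 FPKM in discs from 72 h to WPP, at 223 and 170.3 FPKM in eye parts, at 233 and 160 FPKM in antenna parts and at 299 FPKM in discs with mouthparts. It was thus higher in the larva than in the disc at 72 h, and lower in the larva than in any disc library afterwards. The head-domain protein gene mRpS14 went from 155 to 26.8 FPKM in the larva and mRpL14, an intersubunit-face protein gene, from 101 to 17.2 FPKM, both by -2.49. Of the genes past no rule, mRpS21 stood at 102 and 148 FPKM and mRpL33 at 307 and 294 FPKM.

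Markers of larval tissues also differed between these larvae, in both directions. The summed FPKM of 6 salivary gland glue genes was 0.280 at 72 h, with 3 of the 6 listed at 0 (Sgs3, Sgs5 and Eig71Ee), and 133020 at 96 h and 148257 at 120 h. That of 8 fat body genes was 22667, 57355 and 34207, and neither list has a defining marker at 0 in the later larvae. Of the 8 fat body genes 5 rose at least 2-fold from 72 to 96 h and none fell, at backgrounds of 9.80% and 17.3%. Below that limit, Adh (7905 and 4909 FPKM) and apolpp (710 and 677 FPKM) were lower at 96 h. The sum of the 11 muscle genes fell, from 25733 to 16166 FPKM. The part of these tissues in the fall of the mitochondrial ribosomal genes was not tested. With libraries rescaled by the median ratio of genes the count was also 53 of 69, at a background of 14.6% and a median of -1.47 against 0.01 for all genes.

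Between the larvae of 96 and 120 h, 6 of the 69 genes fell at least 2-fold and none rose, at backgrounds of 8.24% and 25.1%. The interquartile range of the differences ran from -0.35 to 0.25, whereas the median over all genes was 0.61. The 6 were mRpS16, mRpS21, mRpL34, mRpL35, mRpL9 and mRpL33, of which mRpS16 went from 98.1 to 25.8 FPKM (-1.89). The difference that stood highest was that of mRpS18C, at 13.3 and 25.3 FPKM (0.88). With median-ratio scaling, which moved the median over all genes from 0.61 to 0.03, 16 genes fell, at a background of 14.9%, and the median of the 69 was -0.60.

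In whole discs the same genes differed less between ages, and few passed the 2-fold rule at any step. From 72 to 96 h, 3 of the 69 fell and none rose, at backgrounds of 11.1% and 5.02%, with a median of -0.47 against 0.05 for all genes, and 68 of the 69 differences were below 0. The 3 were mRpL13, mRpS33 and mRpL14. The first, a core protein gene of the large subunit, went from 74.7 to 35.4 FPKM (-1.06). From 96 to 120 h, 3 fell and none rose, at backgrounds of 5.11% and 5.89%, with a median of -0.30 against -0.03. These were mRpL34, mRpL33 and mRpL37. In the same 2 steps the genes of the cytosolic ribosome had medians of 0.04 and -0.13. Summed FPKM of muscle genes fell in parallel, from 6853 to 1875 and 205, and the share of muscle in these differences was not tested.

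The change from 96 to 120 h was tested jointly over the whole disc, the eye part and the antenna part, with the deviation of the 3 tissues from a common change as error. No mitochondrial ribosomal gene passed an adjusted p of 0.05 in limma, and 6 of 69 had an unadjusted p under 0.05, against 1655 of 9081 genes tested. In all, 0.947% of genes were called higher and 1.17% lower. The median estimate was -0.21, against -0.08 over all genes, and 66 of 69 estimates were below 0. The lowest estimate was that of mRpL47 (-0.53, SE 0.17, 95% interval -0.96 to -0.09, adjusted p = 0.208), whose values at 96 and 120 h were 60.0 and 53.0 FPKM in the disc, 65.4 and 42.7 in the eye part and 73.4 and 41.7 in the antenna part. It was lower at 120 h in each of the 3 tissues. The highest was that of mRpS21 (0.18, SE 0.41, interval -0.94 to 1.29), which was 184 and 95.4 FPKM in the disc, 111 and 186 in the eye part and 147 and 243 in the antenna part. Its direction thus differed between tissues, and it turned to between -0.11 and -0.10 without any 1 of the 4 part libraries. Without the whole disc of either age the median of the 69 was -0.14, with 16 estimates above 0.

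At pupariation the group as a whole differed little. From the 120 h disc to the WPP disc the median difference was -0.04 against -0.12, with 2 genes higher and 1 lower by the 2-fold rule, at backgrounds of 5.04% and 9.34%. The gene mRpL34 rose from 217 to 655 FPKM (1.59) and mRpS16, whose bacterial homologue binds early in small-subunit assembly, from 159 to 345 FPKM (1.11). The gene mRpL47, whose product sits near the exit of the peptide tunnel, fell from 53.0 to 19.3 FPKM (-1.41). The WPP library also listed 981 genes at 0, against 212 to 609 in the others, and its part in these values was not tested.

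Discs with mouthparts and discs alone at 72 h differed by a median of -0.06, against -0.08 for all genes. Only mRpL34 passed the 2-fold rule, lower with mouthparts at 313 against 946 FPKM (-1.59), at a background of 1.63% lower and 8.98% higher. The muscle sum was 12462 FPKM with mouthparts and 6853 without.

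The eye part, where neuronal differentiation is under way, was compared with the antenna part. No gene of the group passed limma, none of the 69 had an unadjusted p under 0.05, and 1348 of the 9081 genes tested did. In this contrast 1.75% of genes were called higher and 1.39% lower in the eye part. The median estimate was -0.14 against -0.02, and 59 of 69 were below 0. The group's median standard error was 0.19, and the lowest adjusted p that of mRpL13 at 0.420 (estimate -0.38, SE 0.17, interval -0.82 to 0.06). The gene mRpL30 had the lowest estimate (-0.47, SE 0.30, interval -1.23 to 0.28), with values of 83.0 and 87.6 FPKM in eye parts against 102 and 137 FPKM in antenna parts. It was lower in the eye part at both ages. The highest estimate was that of mRpL34 (1.28, SE 1.09, interval -2.11 to 4.66), with values of 236 and 924 FPKM in eye parts against 269 and 137 in the antenna part. Without the eye library of 120 h its estimate was -0.36, and that of mRpL33 went from 0.22 to -0.36.

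As single pairs, eye and antenna parts had median differences of -0.09 at 96 h and -0.17 at 120 h. No gene passed the 2-fold rule at 96 h, at backgrounds of 5.06% higher and 7.53% lower. At 120 h mRpL34 alone passed (2.74), at backgrounds of 7.33% and 4.98%, and the lowest difference was that of mRpS2, a small-subunit protein gene, at 20.0 against 36.1 FPKM (-0.82). Within the eye part from 96 to 120 h mRpL34 rose by 1.96 and no gene fell, at backgrounds of 5.39% and 6.27%. Within the antenna part no gene passed, at backgrounds of 4.62% and 9.82%, and the range was from -0.97 (mRpL34) to 0.73 (mRpS21). These pairs share libraries with each other and with the fit above.

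**Figure D3:**
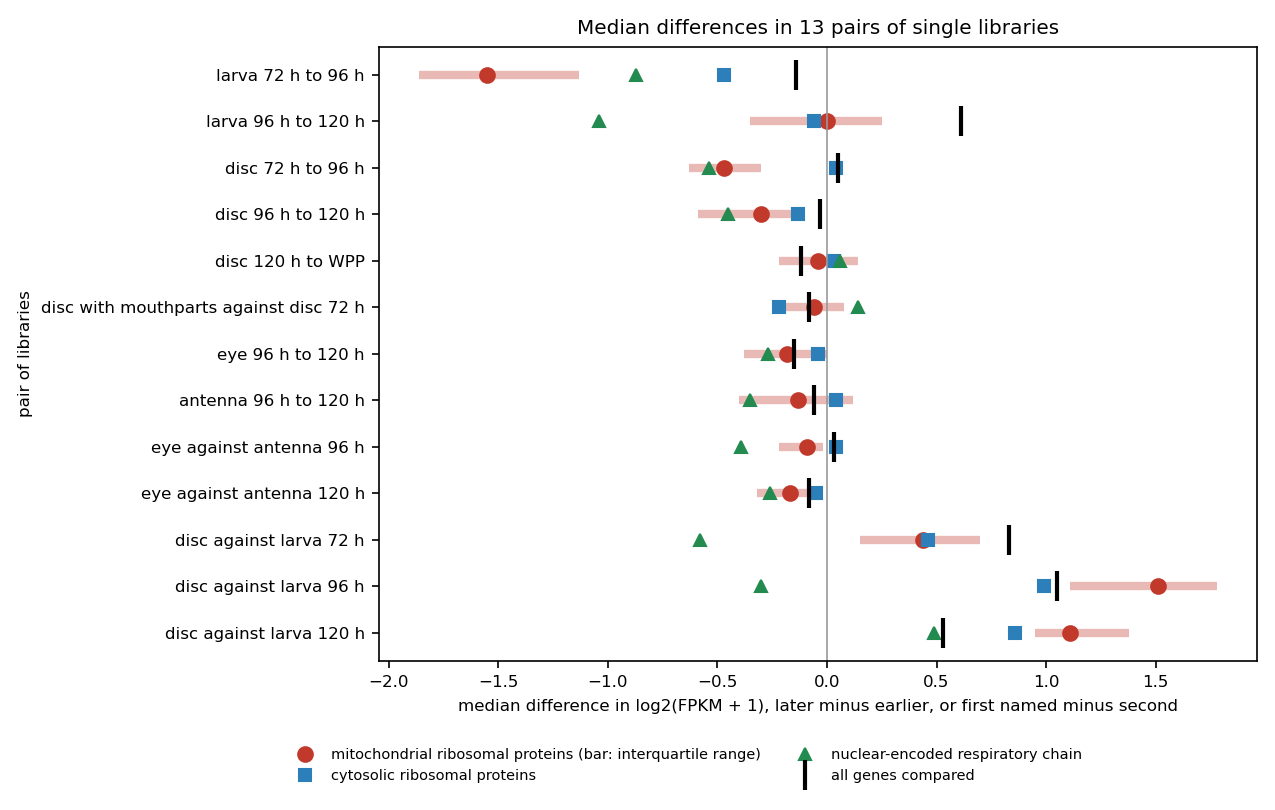
Median difference in log2(FPKM + 1) for 13 pairs of single libraries: circles are the 69 mitochondrial ribosomal protein genes with their interquartile range as a bar, squares cytosolic ribosomal protein genes, triangles nuclear-encoded respiratory chain genes and ticks all genes compared. The circle for the larva from 72 to 96 h, at -1.55, is the lowest of the 13, and the circles for the disc against the larva move from 0.44 at 72 h to 1.51 and 1.11 at 96 and 120 h.

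Over the 3 ages, 34 of 69 genes (49.3%) were higher in the disc and none lower by limma, at backgrounds of 35.9% higher and 14.2% lower among 9993 genes. The median estimate was 0.99 and that over all genes 0.62, so that the group stood 0.37 above the general shift. The 34 comprised 23 of 45 large-subunit and 11 of 24 small-subunit genes. The size of the estimates and the number that passed depended on the scaling, and the group's median stayed above 0. With median-ratio scaling the median over all genes became -0.12 and that of the group 0.18, with 51 of 69 above 0, so that the group stood 0.30 above the general shift. No gene of the group passed there, at backgrounds of 16.1% higher and 19.8% lower. Scaling every library to the same FPKM sum gave 65 higher, at backgrounds of 53.6% and 13.5% and medians of 1.59 for the group and 1.13 for all genes. Without the 96 h disc or the 96 h larva no gene of the group passed, and the share of all genes called higher was 6.45% or 11.7%. Without the 120 h disc or larva 6 or 8 passed, whereas 36.1% or 38.0% of all genes were called higher.

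The gene mRpL20, whose bacterial homologue is needed to assemble the large subunit, had the highest estimate, 1.67 (SE 0.37, adjusted p = 0.00632). It stood at 142, 114 and 58.1 FPKM in the discs of 72, 96 and 120 h against 67.3, 21.9 and 18.1 in the larvae, and every disc exceeded the larva of its age. The gene mRpS10, for a small-subunit head protein, stood at 146, 114 and 72.4 FPKM against 75.8, 23.1 and 24.3 (1.58, SE 0.38, adjusted p = 0.00870). At the other end, mRpL35 had 73.9, 38.8 and 34.7 FPKM in discs against 106, 54.5 and 23.2 in larvae (-0.14, SE 0.37, interval -0.97 to 0.68). It was the only gene of the 69 with an estimate below 0, and that sign turned under 5 of the alternatives, with values between 0.02 and 0.45. The intervals of mRpL28 (0.28, SE 0.33) and mRpS9 (0.30, SE 0.34) also spanned 0, and the estimates turned to -0.54 and -0.51 with median-ratio scaling.

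At 72 h, 6 genes were at least 2-fold higher in the disc and none lower, at backgrounds of 45.0% and 18.1%, and the group's median of 0.44 lay below that of all genes, 0.83. With the mouthpart library in place of the disc, a comparison added after the data had been seen, 3 were higher and none lower, at backgrounds of 43.4% and 14.6%, with a median of 0.34 against 0.80. At 96 h 56 were higher and none lower (backgrounds 51.7% and 19.3%), with a median of 1.51 against 1.05. At 120 h 48 were higher and none lower (backgrounds 29.5% and 21.7%), with a median of 1.11 against 0.53. Relative to all genes, the group therefore went from -0.39 at 72 h to 0.46 and 0.59. With median-ratio scaling, the counts at 72, 96 and 120 h were 0, 6 and 9 higher, at backgrounds of 19.2%, 19.3% and 13.3%, and 11, 1 and 0 lower, at backgrounds of 30.3%, 31.0% and 26.7%. The group's median was then -0.48 at 72 h, so that its direction turned at that age, and 0.46 and 0.67 at 96 and 120 h. Fat body genes summed to between 56.4 and 1403 FPKM in disc-derived libraries and to between 22667 and 57355 FPKM in larvae, and the part of such tissues in the differences was not tested.

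**Figure D4:**
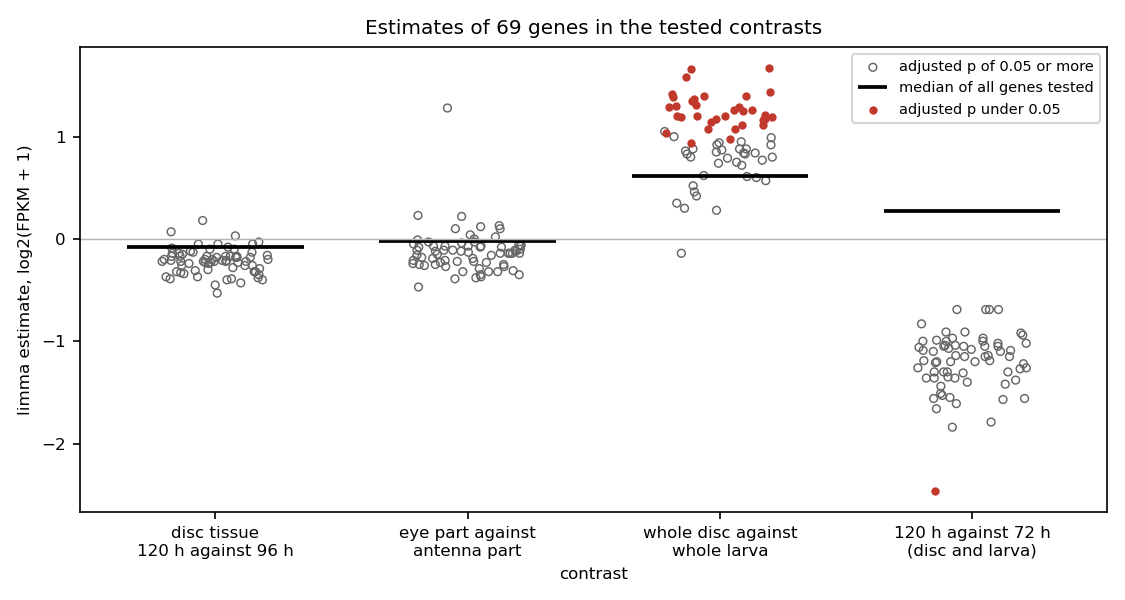
Limma estimates in log2(FPKM + 1) for the 69 genes in 4 contrasts, with 1 point per gene; filled points passed an adjusted p of 0.05 and the bar is the median over all genes tested. Of the 69 genes, 34 passed for the disc against the larva and 1 for 120 h against 72 h, where all 69 lie below 0 and the median of all genes is 0.27.

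The contrast of 120 h with 72 h over disc and larva placed all 69 estimates below 0, with a median of -1.15 against 0.27 for all genes. Only mRpL34 passed limma (-2.46, SE 0.48, adjusted p = 0.0230), at backgrounds of 1.41% higher and 2.88% lower. An unadjusted p under 0.05 was found for 56 of the 69 genes and for 2118 of the 9993 tested. The next estimates were those of mRpS33 (-1.84, SE 0.46, adjusted p = 0.0591) and mRpL14 (-1.79, SE 0.47, adjusted p = 0.0721), and the estimates nearest 0 were -0.69 for mRpL39, mRpS22, mRpS28 and mRpS29. Without the 72 h disc 15 passed, all lower, at a background of 5.01% lower. Without the 72 h larva none passed at a background of 5.79% lower, and without the 96 h disc none at 2.62%. Without the 120 h larva or the 120 h disc no gene at all was called, so the count of 0 there says nothing about the group. The group's median minus that of all genes was -0.91 without the 72 h larva and -1.98 without the 72 h disc, and -1.42 with all libraries.

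Within the group, genes differed in how closely they followed the group's median. Taking each gene's deviation from that median, centred on its own median over the libraries, 35 of 69 genes stayed within 0.5 log2 units in all 12 libraries and 7 passed 1 in at least 1 library. The standard deviation over libraries had a median of 0.25, and ran from 0.10 to 0.95. The widest were mRpL34 (0.95), mRpS16 (0.68), mRpS21 (0.62), mRpL35 (0.62) and mRpL33 (0.54).

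The gene mRpL34 (FBgn0083983), for a very small basic protein of the large subunit, stood at 423, 170.3 and 60.2 FPKM in the larvae and at 313 FPKM in discs with mouthparts. In whole discs it stood at 946, 679, 217 and 655 FPKM from 72 h to WPP, and in the parts at 236 and 924 (eye) and 269 and 137 FPKM (antenna). The discs of 72 h, 96 h and WPP and the eye part of 120 h were high and the other disc libraries low, an order that follows neither age nor part. Its longest transcript has 327 nt, the shortest of the group. The cytosolic ribosomal gene RpL41, with 320 nt, stood at 122508, 114492, 90129 and 187489 FPKM in those same 4 libraries and at 23965 to 28265 FPKM in the other 5 disc libraries, a comparison chosen after the values had been seen. Across 20 protein-coding genes under 350 nt, of which 2 are in the group, the median deviation from the mean of the disc libraries was taken. It ran from -0.98 in the 120 h antenna part to 1.28 in the 72 h disc. It was 0.45 in the 96 h disc, 0.42 in the 120 h eye part, -0.84 in the 120 h disc and -0.29 in the 96 h eye part. However, it was 0.57 with mouthparts and 0.25 in the 96 h antenna part, where mRpL34 was low. At WPP, where mRpL34 was high, it was -0.07, so these genes followed its order only in part. The part of transcript length and library preparation in the values of mRpL34 was not tested.

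The whole disc gives a measure of this spread, because it contains both parts. At 96 h mRpL34 was 679 FPKM in the disc against 236 and 269 in its parts, and at 120 h mRpL33 was 307 FPKM against 802 and 569, outside both. Over the 69 genes the median absolute difference of the disc from the mean of its parts was 0.17 at 96 h and 0.21 at 120 h. Over all genes it was 0.14 and 0.23. It passed 2-fold for 1 and 3 of the 69 genes, at backgrounds of 5.98% and 5.76%. The 3 at 120 h were mRpL33, mRpL34 and mRpS21, with transcripts of 349, 327 and 475 nt. At 96 h 37 genes were higher in the disc than in either part and 19 lower, and at 120 h 13 were higher and 36 lower. The like counts over all genes were not taken. With sign, the group's median difference was 0.09 at 96 h and -0.12 at 120 h, against 0.0 and 0.09 over all genes. The 6 genes under 500 nt had a median range over the disc libraries of 1.44, against 1.06 for the 43 genes from 500 to under 1000 nt and 1.01 for the 20 longer ones.

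**Figure D5:**
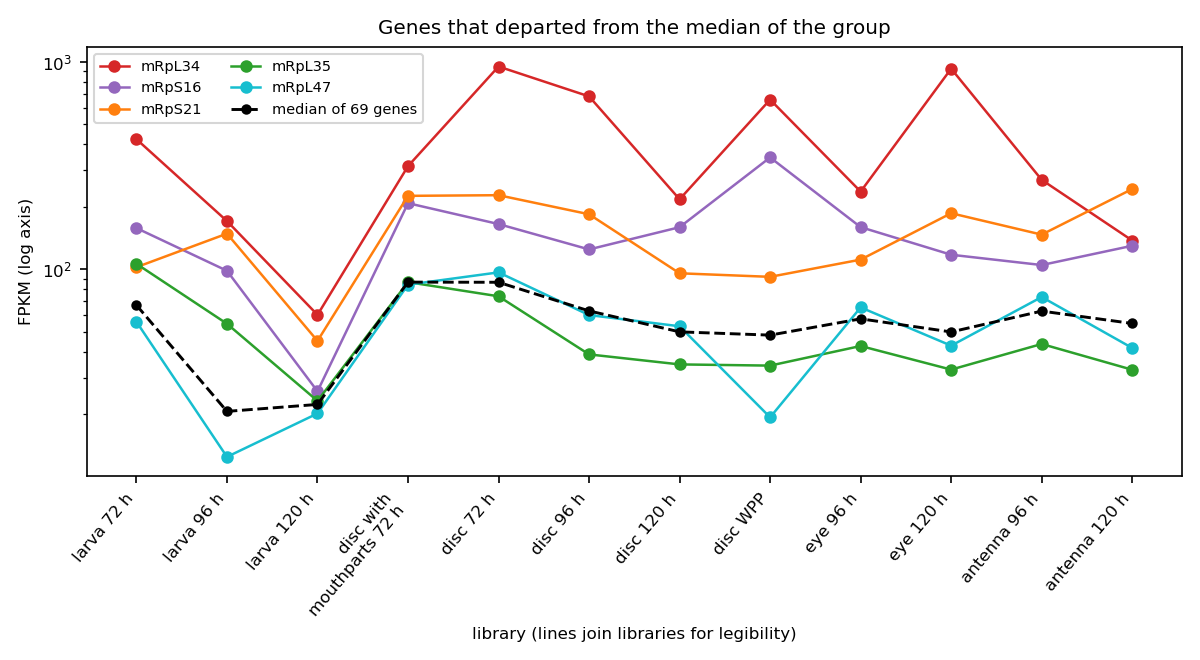
FPKM (log axis) in the 12 libraries of 5 genes that departed from the group, with the median of the 69 genes as a dashed line. mRpL34 peaks in the discs of 72 h (946), 96 h (679) and WPP (655) and in the eye part of 120 h (924), mRpS16 at WPP (345), and mRpL47 falls below the median at WPP (19.3).

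The gene mRpS16 (FBgn0033907) stood at 158, 98.1 and 25.8 FPKM in the larvae and at 208 FPKM with mouthparts. In discs it stood at 165, 124, 159 and 345 FPKM from 72 h to WPP, and in the parts at 159 and 117 (eye) and 105 and 130 FPKM (antenna). The WPP disc was its highest library and the 120 h larva its lowest. It overlaps ReepB on the opposite strand, and ReepB stood at 128 and 77.8 FPKM in the discs of 120 h and WPP, so that it was lower where mRpS16 was higher. In all, 40 of the 69 genes overlap a gene on the opposite strand and 2 one on the same strand, and whether reads were assigned by strand is not given in the sources used here. In the 28 genes with no overlap the main counts were alike in share: 22 fell in the larva from 72 to 96 h (median -1.52) and 26 were higher in the disc at 96 h (median 1.5).

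The platform protein gene mRpS21 (FBgn0044511) and mRpL35 (FBgn0038923) departed in the 96 h larva. The former stood at 102, 148 and 45.1 FPKM in the larvae, and at 227, 184, 95.4 and 91.7 FPKM in discs from 72 h to WPP. The latter stood at 106, 54.5 and 23.2 FPKM in the larvae, and at 73.9, 38.8, 34.7 and 34.3 FPKM in the discs. Both lay above the group's own trend in the 96 h larva, by 1.5 and 1.81. The gene mRpL35 overlaps CG6028 on the opposite strand, which stood at 173, 105 and 54.4 FPKM in the larvae. In the discs from 72 h to WPP CG6028 stood at 73.1, 50.7, 37.5 and 44.0 FPKM. CG8870, opposite mRpS21, stood at 1.93, 0.979 and 0.712 FPKM in the larvae. The part of these overlaps in the values was not tested. At the steady end, mRpL28, mRpS9, mRpL42, mRpL52 and mRpL10 had the narrowest ranges over the 12 libraries, and mRpL28 ran from 34.3 FPKM in the 120 h larva to 82.0 FPKM in the 72 h disc.

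The authors' deposited table places each gene in 1 of 11 clusters made from these samples. Cluster 6 held 38 of the 69 genes (55.1%, against 14.7% of all genes), cluster 7 held 20 (29.0%, against 16.1%) and cluster 11 held 9 (13.0%, against 6.25%). The gene mRpS16 was alone in cluster 1 and mRpS2 in cluster 5. Cluster 11 held mRpL9, mRpL11, mRpL30, mRpL33, mRpL37, mRpL42, mRpL46, mRpS11 and mRpS21. Its genes had a median difference of -0.63 in the larva from 72 to 96 h and 0.42 in the antenna part from 96 to 120 h, whereas those of cluster 6 had -1.62 and -0.13 and those of cluster 7 had -1.72 and -0.25. Since the clusters were built from these values, the differences only describe them.

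The rest of the mitochondrial translation system was read beside the group. The genes tko and bonsai encode the small-subunit proteins S12 and S15 under other names. The first stood at 94.7, 15.9 and 19.2 FPKM in the larvae and at 95.4, 59.1, 58.5 and 17.3 FPKM in discs from 72 h to WPP. The second stood at 78.1, 19.1 and 20.4 FPKM and at 94.9, 57.8, 45.4 and 44.6 FPKM. Both fell in the larva from 72 to 96 h, and tko fell again from the 120 h disc to WPP (-1.70), where bonsai differed by -0.03. Neither passed limma for the disc against the larva, where their median was 1.06 and both had an unadjusted p under 0.05.

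Of 10 genes listed as mitochondrial translation factors, 3 were higher in the disc than in the larva by limma and none lower. The list includes mTerf3, whereas mTerf5 and mTTF were listed with DNA, transcription and RNA. They were mTerf3 (1.52, SE 0.35, adjusted p = 0.00749), the elongation factor gene mEFG1 (0.99, SE 0.36, adjusted p = 0.0463) and the initiation factor gene mIF3 (0.90, SE 0.33, adjusted p = 0.0444). At WPP mIF3 stood at 1.83 FPKM, against 15.4 FPKM in the 120 h disc, and the elongation factor gene mEFTu2 at 1.34 against 15.9 FPKM. Both fell by the 2-fold rule, at a background of 9.34%, and the other 6 factors compared did not. The gene mIF2 stood at 0.106 FPKM at WPP against 3.40 FPKM in the 120 h disc. It was not compared, since neither library reached 5 FPKM. Of 15 mitochondrial aminoacyl-tRNA synthetase genes 6 were higher in the disc and none lower, led by IleRS-m (1.5, SE 0.38, adjusted p = 0.0107).

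Among 15 genes of mitochondrial DNA, transcription and RNA, 6 were higher in the disc and none lower, with mtSSB, which binds single-stranded mitochondrial DNA, at 1.57 (SE 0.39, adjusted p = 0.0104) and TFAM, which packages that DNA, at 1.48 (SE 0.35, adjusted p = 0.00827). Of 5 membrane insertion and protease genes none passed limma, adjusted or unadjusted, and Phb2 had the largest estimate, 0.95. Of 13 import and chaperone genes 3 were higher and none lower: the outer-membrane pore gene Tom40 at 1.43 (SE 0.39, adjusted p = 0.0142), the receptor gene Tom20 and the small chaperone gene Tim9a. Of 10 regulators of growth and mitochondrial genes 7 were higher and none lower. They were srl, the PGC-1 homologue, at 2.10 (SE 0.36, adjusted p = 0.0023), Myc at 1.67 (SE 0.36, adjusted p = 0.00582), and Ets97D, ewg, Dref, M1BP and Max. All of these counts are read against the same background of 35.9% higher. With median-ratio scaling, at its background of 16.1%, 1 factor, 1 gene of DNA, transcription and RNA and 4 regulators were higher and no synthetase or import gene was, and 1 regulator was lower. The list medians were then 0.06 for the factors, 0.09 for the synthetases, 0.08 for DNA, transcription and RNA and 0.64 for the regulators. Those of insertion and proteases (-0.07) and of import (-0.20) turned below 0, and none of the genes called higher above turned.

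In the larva from 72 to 96 h the medians of these lists were -1.06 for the factors, -0.61 for the synthetases, -1.13 for DNA, transcription and RNA, -1.28 for insertion and proteases and -1.73 for import. The regulators had a median of 0.04. In the other 3 limma contrasts no gene of these 7 lists passed. For 120 h against 96 h an unadjusted p under 0.05 in limma was found for 1655 of 9081 genes. In the lists it was found for 3 of 15 synthetase, 1 of 5 insertion or protease, 5 of 13 import and 2 of 10 regulator genes. For the eye against the antenna part it was found for 1348 of 9081 genes. These included 1 of tko and bonsai, 1 of 15 synthetase, 1 of 13 import and 2 of 10 regulator genes. For 120 h against 72 h it was found for 2118 of 9993 genes. These included both tko and bonsai, 3 of 10 translation factor, 2 of 5 insertion or protease, 8 of 13 import and 2 of 10 regulator genes. By absolute estimate, mIF2 (-0.50), AlaRS-m (-0.56), PolG1 (-0.47), Afg3l2 (-0.38), Hsp22 (2.22) and Mnt (0.55) stood first for 120 h against 96 h in disc tissue.

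The cytosolic ribosome and the respiratory chain were set beside the group. Cytosolic ribosomal protein genes had medians of 2425, 1549 and 1593 FPKM in the larvae and of 3032, 3189, 2916 and 2862 FPKM in the discs. Of 85 tested, 24 were higher and 4 lower in the disc, at backgrounds of 35.9% and 14.2%. The 4 lower were RpS28-like, RpS10a, RpL22-like and RpS19b, and the 24 higher included RpL24-like, RpL7-like and RpLP0-like. The list thus holds genes with variant symbols. The median of the 85 was 0.74, which turned to -0.09 with median-ratio scaling. Nuclear-encoded respiratory chain genes, the partners of the proteins that mitochondrial ribosomes make, had medians of 460, 206 and 104 FPKM in the larvae and of 263, 158, 132 and 130 FPKM in the discs. Of 74 tested none was higher in limma and 1, the complex I gene ND-B8, was lower (-1.95, SE 0.55, adjusted p = 0.0186), at the same backgrounds. Their median was -0.12, which turned to 0.49 with scaling to the same FPKM sum. At 72 h their median difference of disc from larva was -0.58, where that of the mitochondrial ribosomal genes was 0.44. In the larva from 96 to 120 h the respiratory chain genes had a median of -1.04, against 0.61 for all genes. By the 2-fold rule 40 of 71 were lower, at a background of 8.24%. Along the disc series the respiratory chain medians, -0.54, -0.45 and 0.06, lay near those of the mitochondrial ribosomal genes, -0.47, -0.30 and -0.04. For 120 h against 72 h the complex III genes UQCR-6.4 (-3.07, SE 0.42, adjusted p = 0.00404), ox (-2.88, SE 0.45, adjusted p = 0.00781) and Cyt-c1 (-2.54, SE 0.57, adjusted p = 0.0445) passed limma. In the cytosolic list RpL39 and RpL41 were lower. These counts stand at a background of 2.88% lower. The difference between lists was described by these medians and was not tested.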

How the data were processed

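Polyadenylated RNA was measured in 12 libraries, 1 per group, with groups taken from the labels. Per the labels' protocols, tissue was dissected live, and libraries were made with random hexamer priming, adapter ligation and size selection. The deposited table gives 1 value per gene and library. Its header names no unit, and the values were read as FPKM because the authors used TopHat and Cufflinks on the build dm3, per the submitters' processing notes, which give no versions. For annotation, strand setting and gene filter, nothing is given in the sources used here. The cluster number beside each gene was deposited by the authors, was treated as a score without a unit and served only for description. Symbols, transcript lengths and overlaps came from the annotation BDGP6.54, in which 10308 of 10893 identifiers (94.6%) had a symbol. Coordinates are not used here, since the builds differ.

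Log2(FPKM + 1) was fitted with limma 3.58.1 in R 4.3.3 (trend and robust), on genes that reached 1 FPKM in 2 or more libraries of the fit, with a two-sided test, Benjamini-Hochberg adjustment over every gene tested and a threshold of 0.05. Tissue and age were the terms. One fit took disc, eye part and antenna part at 96 and 120 h, and the other the disc and larva at 72, 96 and 120 h. Each had 6 libraries and 2 residual degrees of freedom. The error is the deviation of matched libraries from additivity, which also holds any true interaction. The p-values measure only the spread between these libraries, which may be technical. The fits were tested on simulated data: changes of 1, 2 and 3 log2 units were called for 64.1%, 95.2% and 98.6% of genes in the disc age contrast (8877 genes) and for 6.80%, 85.1% and 97.0% in the disc and larva contrast (9857 genes). In the latter only 59, 74 and 67 genes were changed by these sizes, whereas 3588 genes were called higher and 1416 lower in the data. The adjusted threshold depends on the share of changed genes, so these percentages do not give the sensitivity of the real disc and larva contrast. The other 13 comparisons are of single libraries by the 2-fold rule, in Python 3.11.15 with pandas 2.3.3, numpy 2.4.6 and matplotlib 3.10.9. All 69 genes passed the filters.

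Named genes are those past a limma contrast (the 6 highest and 6 lowest where over 12), the 3 highest and lowest estimates per contrast, the 5 highest and lowest by median and by range, and the extremes of each pair; others were named after their values were seen. The members, lists and rules were chosen with earlier results of these data known. Alternatives were other pseudocounts (0.1 and 5), scalings, filters and fold limits, and leaving out each library.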

Additional observations from a re-analysis of the deposited data

Results flagged for a closer look

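The gene mRpL34 moved in opposite directions over the same interval in different pairs of libraries. From 96 to 120 h it differed by -1.49 in the larva (170.3 to 60.2 FPKM) and by -1.64 in the whole disc (679 to 217 FPKM), but by 1.96 in the eye part (236 to 924 FPKM). In the antenna part it differed by -0.97 (269 to 137 FPKM). The whole disc contains both parts, yet at 96 h its value lay above that of either part. The short gene RpL41 went from 114492 to 23965 FPKM in the disc and from 25600 to 187489 FPKM in the eye part, a comparison chosen after the values had been seen. Each is a single library against a single library. Neither a difference between tissues nor the part of transcript length and library preparation was tested.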

How the results depend on the processing

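Of the summary values recomputed under other settings, 399 stayed within 1.5 times the reported count or within the residual spread between libraries, and 47 moved. Of the values of named genes, 327 kept direction and side of the threshold, 74 lost the threshold, 3 gained it and 25 turned. Counts below are of mitochondrial ribosomal genes, and percentages in brackets are the shares of all genes in the same direction. The cause of these changes was not tested unless the setting itself gives it.

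Median-ratio scaling gave 16 lower in the larva from 96 to 120 h (14.9%). For the disc against the larva it gave 0 higher and 11 lower at 72 h (19.2% and 30.3%). It gave 6 higher and 1 lower at 96 h (19.3% and 31.0%) and 9 higher at 120 h (13.3%). In limma it gave 0 higher (16.1%), with mRpL28 at -0.54 and mRpS9 at -0.51. In the contrast of 120 h with 72 h it gave 0 lower (0.0693%). Scaling to equal sums over all genes gave 1 higher and 3 lower in the larva from 96 to 120 h (38.8% and 6.6%). It gave 0 lower in the disc from 72 to 96 h (9.29%) and 1 higher in the antenna part from 96 to 120 h (9.0%). In the eye against the antenna part at 120 h it gave 2 lower (8.73%). For the disc against the larva it gave 46 higher at 72 h (66.0%) and 65 in limma (53.6%), with mRpL35 at 0.45. Scaling to genes of at least 1000 nt gave 1 lower both in the disc from 72 to 96 h (10.6%) and in the antenna part (10.2%).

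A limit of 1.5-fold, which admits more genes by construction, gave 6 higher in the larva from 96 to 120 h (51.8%). In the disc it gave 25 lower from 72 to 96 h (16.5%). It gave 18 lower there from 96 to 120 h (11.1%) and 2 lower at WPP (16.1%). It gave 2 lower with mouthparts, 3 higher and 3 lower in the eye part and 1 higher and 7 lower in the antenna part from 96 to 120 h. For the eye against the antenna part it gave 1 higher at 96 h (7.87%) and 2 lower at 120 h (9.96%). For the disc against the larva at 72 h it gave 27 higher (56.8%). A pseudocount of 5 gave 1 lower in the disc from 72 to 96 h (9.03%). For 120 h against 72 h in limma it gave 0 lower (1.33%), where a pseudocount of 0.1 gave 2 (3.53%). Without the filter on low values the group's median minus that of all genes in the disc against the larva was -0.11, 0.80 and 0.77 at 72, 96 and 120 h. With mouthparts in place of the disc, an alternative added after the data had been seen, 3 were higher at 72 h (43.4%). Medians without overlapping genes or without short transcripts, added likewise, did not move beyond the spread.

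Leaving out each library in turn gave 0 to 39 genes higher in the disc than in the larva, where 6.45% to 38.0% of all genes were called higher. It gave 0 to 15 genes lower at 120 h than at 72 h, where 0.0% to 5.79% of all genes were called lower. The relative median lay between -1.98 and -0.91. For 120 h against 96 h in disc tissue mRpL42 ran from -0.21 to 0.30, mRpS16 from -0.07 to 0.33 and mRpS21 from -0.11 to 0.73. For the eye against the antenna part mRpL33 ran from -0.36 to 0.81, mRpL34 from -0.36 to 2.91, mRpS16 from -0.15 to 0.61 and mRpS21 from -0.81 to 0.03. For the disc against the larva mRpL35 ran from -0.50 to 0.04, and for 120 h against 72 h mRpS22 from -1.41 to 0.02. No paired analysis was possible because of the single library in each group, so that replicate numbers match nothing. Libraries were instead matched by age and tissue through the terms of the limma fits themselves. Read numbers are unknown, so what depth limits cannot be given.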
